A study of Danio rerio with 8 samples.

Results

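The single-exon loci of the zebrafish long non-coding RNA (lncRNA) catalogue are those whose transcript models all consist of a single exon. They numbered 103 of the 1014 loci, or 10.2%. Members were chosen from the exon records alone: RefSeq models were ignored, every remaining model of a locus had to have exactly 1 exon record, and loci named after hox genes and the malat1 locus were left out. The catalogue belongs to a ribosome profiling study, in which the RNA fragments protected by ribosomes were sequenced. Whole zebrafish embryos of the wild-type TL/AB strain background were pooled at each of 8 stages, with 1 library per stage. The stages were 2 to 4 cells, 256 cells, 1K cell, Dome, Shield, Bud, 28 hours and 5 days after fertilization. Footprint values of the libraries were not analysed here, so no level, stage or translation value is given for any locus, and the depth of the libraries is unknown. All positions are those of the Zv9 (danRer7) build.

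A lncRNA is a long transcript with no recognised protein product. Most lncRNAs are made like messenger RNAs, from a promoter read by RNA polymerase II and with a cap and a poly(A) tail, and most are spliced. Unspliced examples have no intron, so splice sites cannot give their strand or their borders, and annotation of such RNAs depends on other marks of the start and the end of transcription. Known unspliced lncRNAs of vertebrates include abundant RNAs that stay in the nucleus.

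Every one of the 103 loci was described by models whose identifiers begin with linc-, and 0 carried a model of another source. At loci without a linc- model, no model other than RefSeq was single-exon, so the rule was met only in the linc- source. The share of all 1014 loci therefore also counts loci of a source without such models here. The single-exon loci were 24.0% of the 429 loci with a linc- model. The loci held 115 models: 92 loci had 1 model, 10 had 2 and 1 had 3. For comparison, 299 linc- loci had spliced models alone, and 585 loci had no linc- model. Some of the 299 also held a Zv9_ model, which could be the longest one of the locus. A further 20 loci were just outside the rule, with at least 1 single-exon model beside a spliced model. Of these, 10 had linc- models alone and 10 also had a model named Zv9_. At the latter 10 every single-exon model was a linc- model and every spliced model a Zv9_ model, so lengths there compare 2 sources. The single-exon model was longer than any spliced model at 16 of the 20, and the median of the longest single-exon model there was 3950.5 nt, against 1140.5 nt for the longest spliced model. At the locus named after chd2, a chromatin remodelling gene, a single-exon model of 6798 nt stood beside a spliced model of 665 nt. At the locus named after adarb2, a gene of the RNA editing enzyme family, a single-exon model of 5509 nt stood beside a Zv9_ model of 328 nt.

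The loci form a full list and are not replicates, so the comparisons below describe the catalogue and no test was run between sets of loci. The longest model stood for a locus. Lengths of the single-exon loci ran from 481 to 11211 nt, with a median of 1933 nt and quartiles of 1220 and 3888.5 nt. Medians were higher at the 20 loci with both spliced and single-exon models, 4371 nt, and at the 7 loci left out by the rule, 3022 nt. Spliced linc- loci had a median spliced length of 1521 nt (quartiles 904 and 2932.5 nt), so the ratio of the medians was 1.27. Loci without a linc- model had a median of 858 nt over the 584 loci with a model other than RefSeq. The single-exon loci also exceeded the parts of the spliced models. In the longest model of a spliced linc- locus, the longest exon had a median of 904 nt and the last exon a median of 773 nt. These were 2.14-fold and 2.50-fold below the single-exon median. In genomic extent the order was the opposite, because spliced linc- loci include introns and spanned a median of 8541 bp.

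**Figure D1:**
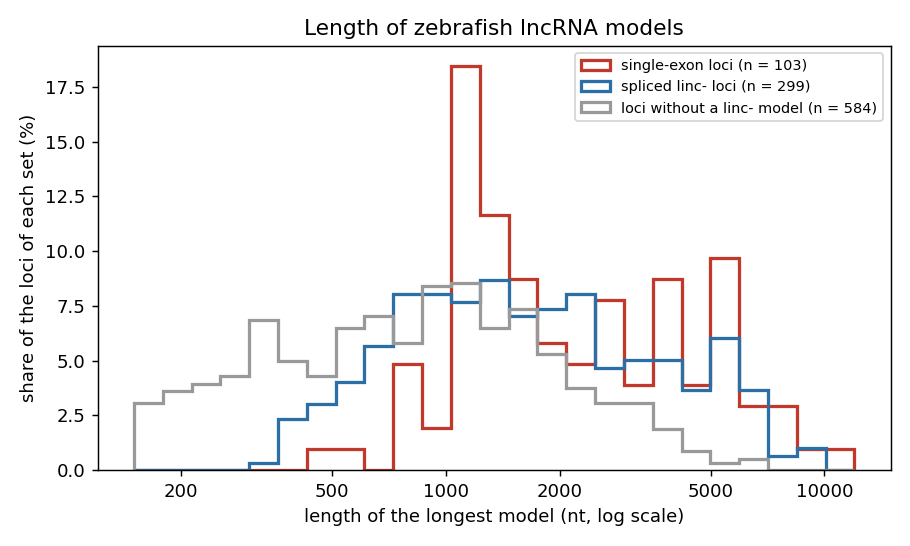
Length of the longest model (nt, log scale) against the share of loci in each of 3 sets, drawn as outlines. The outline of the 103 single-exon loci has its peak just above 1000 nt and few loci below it, while spliced linc- loci and loci without a linc- model reach down to 310 and 163 nt.

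The short end of the distribution was sparse. Only 9 of the 103 single-exon loci, or 8.74%, were under 1000 nt, against 91 of 299 spliced linc- loci (30.4%) and 330 of 584 loci without a linc- model (56.5%). The next 250 nt, from 1000 nt to below 1250 nt, held 23 single-exon loci, or 22.3%, against 10.0% of spliced linc- loci. The labels and the deposited description do not say whether a minimum length was applied to unspliced models. At the other end, 18 single-exon loci (17.5%) had 5000 nt or more, against 34 spliced linc- loci (11.4%) and 5 loci without a linc- model (0.856%). Length did not order by exon number alone. Linc- loci with 2 exons had a median of 1095 nt (n = 74), those with 3 exons 1402 nt (n = 71) and those with 4 exons 1233 nt (n = 51). Loci with 5 or more exons had a median of 2129 nt (n = 103), the only one of these classes above that of the single-exon loci.

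**Figure D2:**
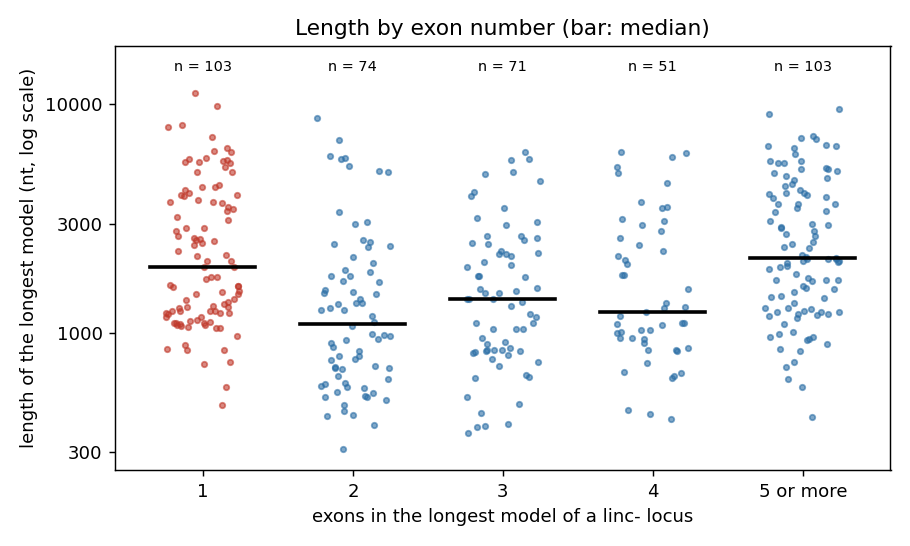
Length of the longest model (nt, log scale) for linc- loci with 1 exon (red) and with 2, 3, 4 and 5 or more exons (blue). Each point is a locus and each black bar a median. The bar of the single-exon loci, at 1933 nt, lies above those of the classes with 2 to 4 exons and below 2129 nt for 5 or more.

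Among the 10 longest single-exon loci, the first was the locus named after tnnt3b, a troponin T gene of fast skeletal muscle. It was XLOC_014239 on chromosome 7, plus strand, from 40821586 to 40832796, and measured 11211 nt. XLOC_013925, named after rbl1, a retinoblastoma family gene of the cell cycle, lay on chromosome 6, minus strand, from 51479582 to 51489367, with 9786 nt. XLOC_011493, named after tceb2, now elob, which encodes elongin B, lay on chromosome 3, minus strand, from 31211695 to 31219792, with 8098 nt. These 3 loci were the only ones above 8000 nt. XLOC_006111, named after si:dkeyp-113d7.1, followed on chromosome 19 with 7919 nt from 5927756 to 5935674. XLOC_005166, named after rps6ka1, a kinase gene that acts downstream of ERK, lay on chromosome 17 from 27017933 to 27025136 with 7204 nt.

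The lengths then closed up, and the remaining 5 of the 10 lay between 5733 and 6462 nt. XLOC_008603, named after zgc:77838 (now ark2n), had 6462 nt on chromosome 21. XLOC_007068, named after itgb1b.2, a gene of the integrin beta family of adhesion receptors, had 6266 nt on chromosome 2. XLOC_016073, named after hibch, a gene of valine breakdown, had 6173 nt on chromosome 9. XLOC_004479 on chromosome 16 was named after zgc:193613, now the apolipoprotein gene apoa2, and had 5845 nt. XLOC_000939, named after the lipid kinase gene pi4k2a, had 5733 nt on chromosome 1. The 10 longest loci lay on 10 different chromosomes.

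The 5 shortest loci were named after genes of other kinds. XLOC_001958, named after the histone demethylase gene kdm5ba, had 481 nt on chromosome 11, minus strand, from 25752825 to 25753305. XLOC_011653, named after zgc:165627 (now the centrosomal gene cep112), had 577 nt on chromosome 3. The next, XLOC_000304, was named after zgc:77005, now the NEDD8-conjugating enzyme gene ube2f, and had 731 nt on chromosome 1. XLOC_009895, named after nr4a1, a nuclear receptor gene induced early after stimulation, had 748 nt on chromosome 23. XLOC_005168, named after yth2, now ythdf2, which encodes a reader of methylated adenosine in RNA, had 836 nt on chromosome 17. The last of these lay 234304 bp from the 7204 nt locus named after rps6ka1, on the same strand. No other single-exon locus was as near to either.

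More than 1 model was listed at 11 of the 103 loci, or 10.7%, against 53 of 299 spliced linc- loci (17.7%) counted over linc- models. All models of such a locus began or ended together at the lower genomic coordinate, whichever the strand. On the plus strand, where the lower coordinate is the start of transcription, this held at 9 of 9 loci. On the minus strand, where it is the end of transcription, it held at 2 of 2. The upper coordinate was shared at 0 of the 11. Among linc- loci with a spliced model and more than 1 linc- model, the lower coordinate alone was shared at 29 of 45 loci on the plus strand and 14 of 18 on the minus strand. There the upper coordinate alone was shared at 2 and 0. Models named Zv9_ did not lean that way: the lower coordinate alone was shared at 8 of 73 plus-strand and 6 of 80 minus-strand loci, and the upper alone at 4 and 9. The shared lower coordinate was therefore common to linc- models on both strands, and whether it comes from transcription or from the annotation was not tested.

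**Figure D3:**
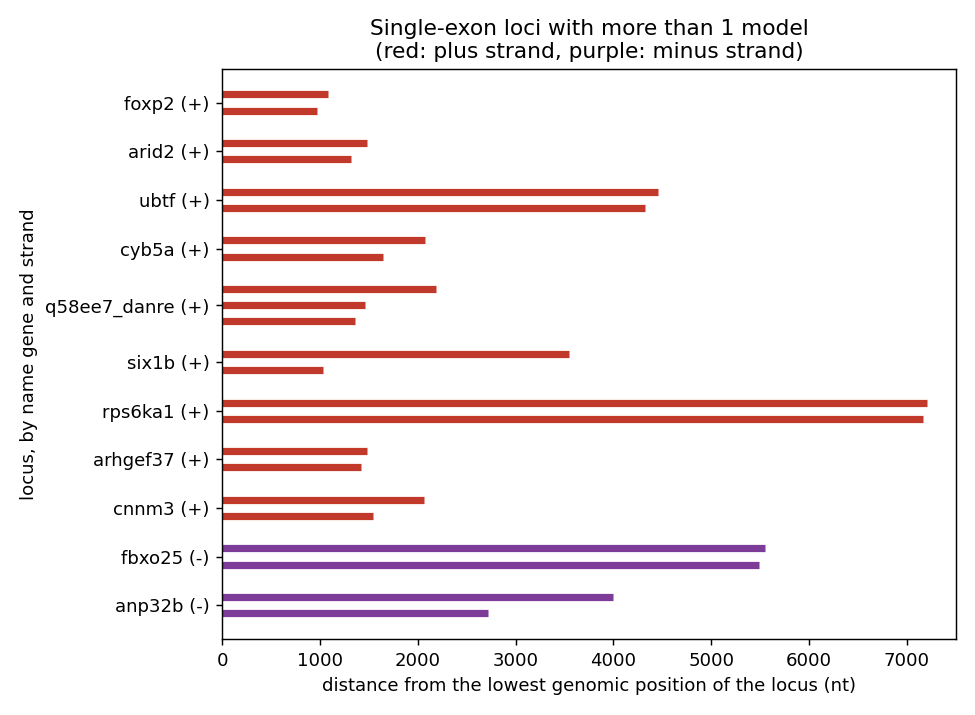
The models of the 11 single-exon loci with more than 1 model, drawn as bars from the lowest genomic position of each locus (nt). Plus-strand loci are red and minus-strand loci purple. Every bar starts at 0, and the models of a locus differ only at the far end, by 32 to 2513 nt.

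The free ends differed by 32 to 2513 nt. At the locus named after six1b, a homeobox gene of placode and muscle development, the models had 3542 and 1029 nt on the plus strand. At the locus named after anp32b on the minus strand they had 4000 and 2716 nt. The only set of 3 was at the locus named after q58ee7_danre, with 2189, 1464 and 1356 nt. The other 8 loci had models that differed by at most 525 nt. At the locus named after rps6ka1 they had 7204 and 7172 nt, and at that named after fbxo25, an F-box gene, 5550 and 5494 nt. At the locus named after ubtf, which encodes a factor of ribosomal RNA transcription, they had 4452 and 4324 nt. Those named after the chromatin remodelling gene arid2 had 1482 and 1321 nt, and those named after the forkhead gene foxp2 had 1083 and 969 nt. The loci named after cnnm3 (2068 and 1543 nt), cyb5a (2069 and 1645 nt) and arhgef37 (1480 and 1423 nt) completed the group. In 11 of 11 loci the model with the lowest number in its name was the longest.

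The single-exon loci were found on all 25 chromosomes and on 0 unplaced scaffolds. Chromosome 5 held 10 of them, chromosome 4 held 9, chromosome 14 held 8 and chromosome 3 held 7, while chromosomes 13, 18 and 25 held 1 each. These numbers partly followed those of the spliced linc- loci, of which chromosome 5 held 25 and chromosome 3 held 21. Chromosome 14 held 8 single-exon and 12 spliced linc- loci, so 40.0% of the 20 were single-exon, and chromosome 4 held 9 and 14, or 39.1%. Chromosome 16 held 4 and 22, or 15.4%, and chromosome 18 held 1 and 11, or 8.33%. With so few loci per chromosome these shares move by several points for each locus.

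**Figure D4:**
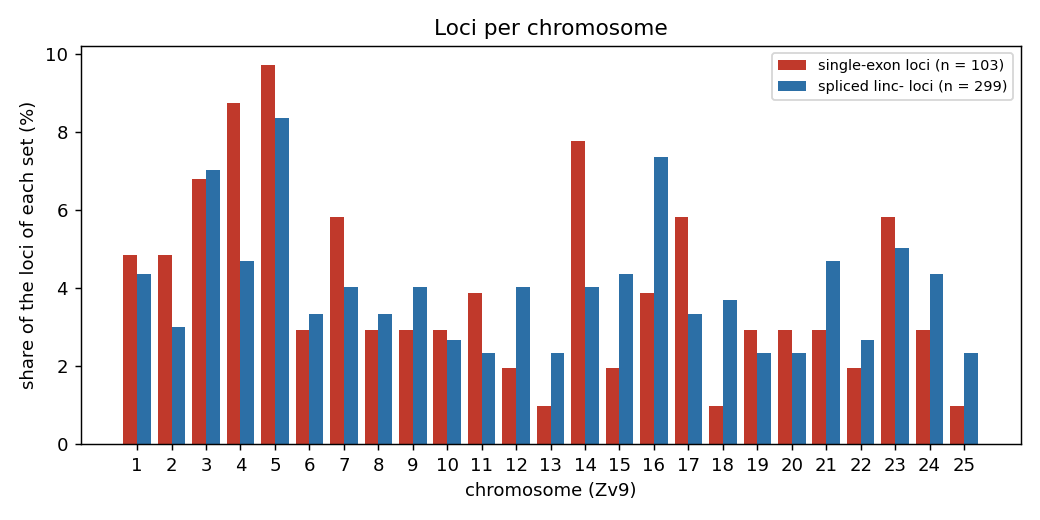
Share of the 103 single-exon loci (red) and of the 299 spliced linc- loci (blue) on each Zv9 chromosome, in percent of each set. Chromosomes 4 and 14 hold 8.74% and 7.77% of the single-exon loci against 4.68% and 4.01% of the spliced linc- loci, and chromosome 16 holds 3.88% against 7.36%.

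Lengths also varied within chromosomes. The 10 loci of chromosome 5 had a median of 3997 nt and ran from 1610 to 5701 nt, so the shortest of them was longer than the first quartile of the whole set. The 9 loci of chromosome 4 ran from 852 to 4363 nt with a median of 1482 nt, and the 8 of chromosome 14 from 1073 to 5596 nt with a median of 2630 nt. The 6 loci of chromosome 17 had a median of 1349 nt, with rps6ka1 at 7204 nt as the only long one. On chromosome 1, 5 loci had a median of 1105 nt and reached 5733 nt.

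The strands were nearly even. The plus strand held 53 loci (51.5%) and the minus strand 50, against 48.5% plus for spliced linc- loci and 52.1% for the whole catalogue. Plus-strand loci had a median of 1608 nt and minus-strand loci 2374.5 nt, with ranges that overlapped almost fully (731 to 11211 nt and 481 to 9786 nt). Among the 25 chromosomes, with 1 to 10 single-exon loci each, the split varied. The plus strand held 6 of 6 loci on chromosome 17 and 5 of 6 on chromosome 7. The minus strand held 7 of 10 on chromosome 5 and 3 of 3 on chromosome 9, while chromosome 14 held 4 on each strand. Strands of spliced linc- loci were not counted by chromosome, so these splits have no comparison.

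Each identifier holds a gene name, and the 103 loci carried 102 different names, with abhd6a at 2 loci. The labels and the deposited description do not say how a locus relates to the gene in its name. In RefSeq's gene table for another assembly, GRCz12tu, from which only symbols and chromosome numbers were taken, the names of 81 loci (80 different names) led to 1 gene each, a protein-coding gene in every case. For 78 of these 81 loci the gene lay on the chromosome of the same number. The exceptions were cnnm3, zgc:92022 (now phtf2) and slc9a3r2, a name now listed as a synonym of nherf1a. Another symbol is now in use at 34 of the 81 loci. Provisional names stood at 38 loci, or 36.9%: 22 began with zgc:, 10 with loc, 5 with si: and 1 with wu:. The share was 37.5% among spliced linc- loci. Of the 38 provisional names, 23 now have another symbol, such as zgc:92458 (snx7, a sorting nexin), zgc:63566 (cnot4b, a subunit of the CCR4-NOT complex of mRNA decay) and zgc:101653 (znf143a, a zinc finger transcription factor). These 3 were chosen as examples once the current symbols were known. The longest loci with provisional names were si:dkeyp-113d7.1, zgc:77838 and zgc:193613, given above, and loc100331916, with 5701 nt on chromosome 5. Single-exon loci with provisional names had a median of 1546.5 nt, and those with other names 2281 nt. Among spliced linc- loci the order was the opposite, with medians of 1670 and 1427 nt. Those medians sort each spliced locus by its first gene name, into 111 and 188 loci, while the share of 37.5% counts 112.

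Gene names were also sorted into 7 functional lists, which together took in 29 of the 103 loci, and 36 loci with neither a provisional nor a listed name remained. The lists group the genes in the names and say nothing of the function of the RNAs. They match name patterns, so each count can miss genes, in spliced linc- loci too. All 7 lists took in a larger share of the single-exon loci. The margin was narrow for RNA processing and translation, with 2.91% against 2.68%. That list includes the kinase gene rps6ka1, through its name only, and the transcription gene polr2a, so its order depends on such entries. Matching entries among spliced linc- loci are not given. The lists were also written with earlier results of these data known. Whether the larger shares come from the genes or from the reach of the patterns was not tested. Developmental and other transcription factors named 7 single-exon loci (6.80%), against 14 spliced linc- loci (4.68%). Their lengths ran from 748 to 5596 nt. The longest was named after msxe, now the homeobox gene msx1a, with 5596 nt. The locus named after jund, a gene of the AP-1 factor family, had 4193 nt, that named after the neural POU gene pou3f3b 4095 nt, and six1b 3542 nt. The others were tbx2a, foxp2 and nr4a1. After the values had been seen, 4 further names of DNA-binding factors were found that the patterns of the list had missed: msgn1, bcl6a, gabpa and ubtf, with 1246, 2431, 3796 and 4452 nt. No matching count of missed names is given for spliced linc- loci, so these 4 cannot be added to the comparison. Provisional names whose current symbol is that of such a factor, as zgc:101653 (znf143a), are not among the 4.

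Channels, transporters, adhesion and synapse genes named 6 single-exon loci (5.83%), against 13 spliced linc- loci (4.35%). That named after itgb1b.2 led with 6266 nt, then that named after the cotransporter family gene slc12a9 with 5657 nt. That named after gabra2, a subunit of the GABA-A receptor, had 5564 nt, and that named after the cation channel gene trpc7 had 3682 nt. The name slc9a3r2, now a synonym of nherf1a, is not that of a transporter gene and entered only through its pattern. Genes of the cell cycle, ubiquitin and proteolysis named 4 loci (3.88%) against 8 (2.68%): rbl1 with 9786 nt, fbxo25 with 5550 nt, asb2b with 1760 nt and trim71, a regulator of developmental timing, with 1048 nt.

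The remaining lists held 3 single-exon loci each, or 2.91%. Signalling genes named 1 spliced linc- locus (0.334%). Their single-exon loci were axin1, a scaffold of the Wnt pathway's destruction complex, with 3750 nt, the adrenergic receptor gene adrb2a with 2468 nt and the hedgehog ligand gene ihha with 1245 nt, on the minus strand. The patterns missed at least 3 further signalling names, found once the values were known. They were nrarpb, a Notch modulator, and the hormone receptor gene ghrhr on the minus strand, with 2281 and 1118 nt, and the BMP modulator twsg1a on the plus strand, with 1224 nt. Here too no matching count is given for spliced linc- loci, so these 3 stay outside the comparison. Chromatin regulators named 3 spliced linc- loci (1.00%), and arid2, arid4a and kdm5ba gave single-exon loci of 1482, 1100 and 481 nt. Genes of RNA processing and translation named 8 spliced linc- loci (2.68%). The single-exon loci of that list were rps6ka1 with 7204 nt, polr2a, the largest subunit of RNA polymerase II, with 5305 nt, and rbm24b, an RNA-binding protein gene of muscle, with 2640 nt. The first is a kinase gene and entered only through the pattern of its name, and polr2a is a gene of transcription. The patterns of that list missed yth2 (now ythdf2), which stays outside the comparison. Cytoskeleton and muscle genes named 4 spliced linc- loci (1.34%), and tnnt3b, arhgef37 and cfl2l (now cfl1, a cofilin) gave single-exon loci of 11211, 1480 and 1073 nt.

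The gap to the nearest other locus of the catalogue, on either strand, had a median of 485520 bp, against 328049 bp for spliced linc- loci and 373266 bp for loci without a linc- model on sequences with another locus. Another locus within 10 kb was found for 7 of 103 (6.80%), against 27 of 299 spliced linc- loci (9.03%) and 54 of 563 others (9.59%). Within 100 kb the numbers were 23 (22.3%), 77 (25.8%) and 151 (26.8%). Beyond 1 Mb the order turned, with 18 single-exon loci (17.5%), 65 spliced linc- loci (21.7%) and 111 others (19.7%). The 3 most isolated were named after hibch, 4610522 bp from its nearest neighbour, after axin1, at 3329273 bp, and after pi4k2a, at 2493493 bp. The nearest locus was described by Zv9_ models at 60 of the 103 loci, by linc- models at 42 and by both at 1. These shares, 58.3% and 40.8% for the first 2 kinds, were close to the 57.6% and 40.1% of the whole catalogue. The nearest locus was itself single-exon at 4 of the 103 (3.88%), against 34 of 299 spliced linc- loci (11.4%). Single-exon loci were 10.2% of the catalogue, and the 4 include the abhd6a pair, each the nearest locus of the other.

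**Figure D5:**
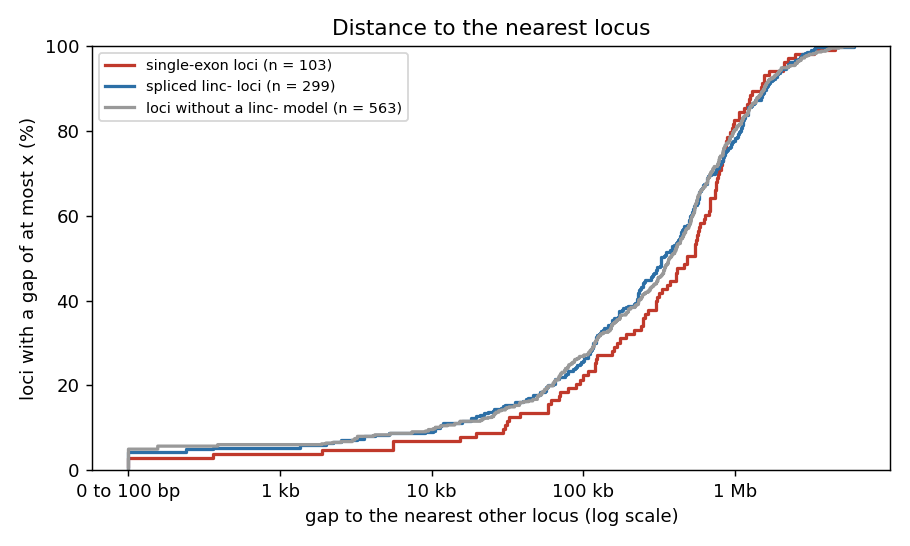
Cumulative share of loci (%) whose nearest other locus lies within the gap on the horizontal axis (log scale, with gaps under 100 bp and overlaps drawn at 100 bp). The curve of the single-exon loci runs below the other 2 over most of the range below 1 Mb, with medians of 485520, 328049 and 373266 bp.

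Of the 7 loci with a close neighbour, 3 overlapped it, all on opposite strands. They were 2.91% of the single-exon loci, where 13 of 299 spliced linc- loci (4.35%) and 28 of 563 others (4.97%) overlapped their nearest locus. The locus named after anp32b, a histone chaperone family gene, lay on chromosome 1, minus strand, from 25631827 to 25635826. It was wholly within the 5-exon locus XLOC_000419 on the plus strand, from 25630758 to 25636172, and 2688 of its 4000 bp, or 67.2%, were exonic there. The 2 loci carry the same gene name, with models numbered 2 and 3 on the minus strand and 1 on the plus strand. The locus named after tbx2a, a T-box gene, lay on chromosome 5, minus strand, from 57913902 to 57915511, within the 2-exon locus XLOC_012678. There 463 bp of it, or 28.8%, were exonic. The locus named after rnd1 on chromosome 23, plus strand, from 17952515 to 17953759, lay in a locus of 181205 bp and shared 0 bp with its exons, so it was wholly intronic to it on the opposite strand.

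The other 4 close loci lay beside their neighbours. XLOC_013132, named after zgc:100930 (now wdr54), lay on chromosome 5, minus strand, from 44679318 to 44683330. It was separated by 360 bp from XLOC_013133, a 5-exon locus of the same name and strand that ran from 44683691 to 44689825. In the direction of transcription the single-exon locus, of 4013 nt, followed the spliced one, of 1709 nt. It was the only one of the 7 whose nearest locus was on the same strand. XLOC_003882, named after c11orf53, lay on chromosome 15, plus strand, from 16775484 to 16777009. Its neighbour on the minus strand ended 1880 bp away, from 16770171 to 16773603, so the pair pointed away from each other. XLOC_001770 and XLOC_002051, both named after the lipase gene abhd6a on chromosome 11, were separated by 5572 bp. The former ran on the plus strand from 43143208 to 43144410 and the latter on the minus strand from 43149983 to 43151702, so they converged.

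A gene name that also named another locus was found at 9 of the 103 loci (8.74%), against 19 of 299 spliced linc- loci (6.35%). The 9 carried 8 names. Every such partner lay on the same chromosome. Counting each single-exon locus with each partner that was not single-exon throughout, 9 pairs arose, of which 5 were on opposite strands and 4 on the same strand. Those partners had 2 to 5 exons in their longest model. Beside anp32b and zgc:100930, described above, the gap was 19596 bp for fbxo25, 60912 bp for loc100331680, 76941 bp for cabp7, 79535 bp for zgc:165627 and 305815 bp for pou3f3b. For abhd6a, the partner XLOC_001771 on the plus strand lay 20866 bp from XLOC_001770 and 13574 bp from XLOC_002051. Its linc- model was a single exon of 1245 nt, beside a spliced Zv9_ model of 1327 nt. For fbxo25 the minus-strand models bore the numbers 3 and 4, and the plus-strand models of the partner 1 and 2. At pou3f3b, the single-exon locus of 4095 nt was far longer than its partner of 506 nt, and at zgc:165627 it was shorter, at 577 against 1566 nt.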

How the data were processed

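Ribosome footprints were measured in 8 libraries, 1 per stage, and no library value entered the comparisons. The authors deposited exon coordinates, counted from 1, of zebrafish transcript models. Per the authors' description file, models beginning with linc- come from Ulitsky et al. and those beginning with Zv9 from Pauli et al., with RefSeq models of the same loci. The submitters' processing notes name Bowtie2, TopHat2, bedtools and the build Zv9 (danRer7), without versions or roles, and no source names the tool that grouped models into loci. A combined list inherits the filters of its sources, which can set lengths and exon numbers.

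Length was the summed exon length of the longest model other than RefSeq. The gap to the nearest locus ran between locus ends on either strand and was 0 for overlaps. Gene names were read from identifiers without their final numbers and copy notes, and sorted into lists by patterns. The named loci were the 10 longest, the 5 shortest, those with more than 1 model, those nearest to and the 3 farthest from another locus, those that share a gene name, and the 4 longest of each list. The members and lists were chosen with earlier results of these data known. Loci just outside the rule, model ends, chromosome starts and orientation were examined after the data had been seen. No test was run, since loci are not replicates. Exon counting, lengths and gaps were tested on simulated plus-strand loci with 1 model each and no overlaps. Loci with several models, overlaps, the minus strand and the removal of RefSeq models were not covered by that check. The mouse catalogue was not used here, and 0 columns of values per sample were passed over. Python 3.11.15, numpy 2.4.6, pandas 2.3.3 and matplotlib 3.10.9 were used.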

Additional observations from a re-analysis of the deposited data

How the results depend on the processing

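Of 24 alternatives to 6 values, 20 left the value within its margin. The margin was 10% for lengths and ratios and 1.5 times for counts. For the strand share it was the 95% exact binomial interval, used only as a width, since loci are not independent draws. Some of the 20 could not move the value. The single-exon loci had 0 members on scaffolds and 0 with RefSeq models, so keeping assembled chromosomes only or counting RefSeq models removed none. Merging exons left each at the length of its longest model. The number of loci was 119 when only the longest model had to be single-exon, 123 when any model sufficed and 108 with the left-out loci kept. The length ratio to spliced linc- loci, 1.27, became 1.78 against all other zebrafish loci and 2.14 against the longest exon at spliced linc- loci. These comparisons replace the set or the quantity. The 7 loci with a neighbour within 10 kb became 1 with same-strand neighbours only and 4 with linc- neighbours only, since fewer neighbours were admitted. With loci of both kinds of model counted as spliced, a choice made after seeing the data, the ratio was 1.21. No paired analysis was possible because each stage had 1 library and no library value was used. No value here has a sequencing depth, and lengths are those of annotated models, whose true ends were not measured.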

Other observations

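The following values were noticed in the data and were not tested. Near the first base of chromosomes, 7 of the 103 single-exon loci (6.80%) began within 1 Mb, against 4 of 299 spliced linc- loci (1.34%) and 24 of 563 loci without a linc- model (4.26%). All 7 lay on the minus strand, as did the 4 spliced linc- loci, while loci without a linc- model were 14 on the plus and 10 on the minus strand. The nearest to the start of its chromosome was XLOC_012003, named after msgn1, a gene of the presomitic mesoderm, from 2590 to 3835 on chromosome 4. It was followed by XLOC_002337, named after zgc:194486 (now map2k4b), from 11968 to 13096 on chromosome 12. The others were named after gpd1, msxe, zgc:158458, kiaa1432 and napgl. Within 2 Mb the numbers were 9 single-exon (8.74%), 15 spliced linc- (5.02%) and 41 other loci (7.28%), so the gap between the sets was smaller in the wider window. The far ends of the chromosomes were not examined.

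The nearest locus lay on the same strand for 39 of the 103 single-exon loci (37.9%), without overlap. For spliced linc- loci it did so in 148 of 299 (49.5%), and for loci without a linc- model in 281 of 563 (49.9%). Among the single-exon loci 35 pointed away from the nearest locus (34.0%) and 26 pointed towards it (25.2%), where both shares were 23.1% for spliced linc- loci. For 80 of the 103 single-exon loci the nearest locus lay more than 100 kb away, whichever its strand.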
